A study of Mus musculus with 16 samples.

Results

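Complex I of the respiratory chain was represented by 45 genes. Levels are in RPKM, mapped reads per kilobase of exons, scaled to the mapped reads of the library. The rule took all rows of the deposited table whose name begins with Nduf and that reached 1 RPKM in at least 4 of 16 libraries. All 45 Nduf rows met this rule, so none was left out, and they stand among 23440 listed genes and 10171 genes that passed the same filter and were tested. By name, 38 are subunits (Ndufa, Ndufb, Ndufc, Ndufs and Ndufv) and 7 are assembly factors (Ndufaf1 to Ndufaf7). The RNA came from the gastrocnemius, a mainly fast-fibred calf muscle, of male C57Bl6/J mice aged 20 weeks. The groups were Il13-/- (KO) mice trained by 5 weeks of daily treadmill running, untrained KO mice, trained wild-type (WT) mice and untrained WT mice, with 4 separate mice in each. Interleukin-13, the product of Il13, is a type 2 cytokine. The sources used here do not say which part of Il13 was deleted or whether KO and WT mice were littermates.

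Complex I oxidizes NADH, passes the electrons to ubiquinone and pumps protons across the inner mitochondrial membrane. Its peripheral arm holds the NADH site and the iron-sulfur clusters, and its membrane arm holds the proton pumps, whose core subunits are encoded by mitochondrial DNA. Accessory subunits surround the core, and assembly factors join the modules but do not stay in the finished enzyme. Endurance training is known to raise the mitochondrial content of skeletal muscle.

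The 45 genes comprised the 7 nuclear core subunits of the peripheral arm, 9 accessory subunits of that arm, 19 accessory subunits of the membrane arm, the acyl carrier protein Ndufab1, which sits in both arms, the 7 assembly factors, and 2 genes named as subunits, Ndufa4 and its paralogue Ndufa4l2. Ndufa4 is now assigned to complex IV, so the name is wider than the complex. The mitochondrially encoded core subunits and the assembly factors with other names were not chosen by the rule; the mitochondrially encoded ones were not analysed here.

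Libraries held 16307025 to 20074677 reads, solved from the steps of the RPKM values, and 75.6% to 83.5% of these were in listed genes. The skeletal muscle genes Acta1 and Ckm had at least 14561 and 11741 RPKM in each library. Il13 had 2 reads in all in trained KO libraries, 3 in untrained KO libraries, 0 in trained WT libraries and 0 in untrained WT libraries, where a count of 0 allows up to 3 reads in a library, so Il13 reads could not check the genotype labels. The library of trained WT mouse 1 stood apart. Its median subunit was 0.26 above its own mean on the log2 scale, and the median over all genes tested was 0.13 above. In this library 83.5% of reads were in listed genes, against 76.0% to 78.8% in the other trained WT libraries.

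**Figure D1:**
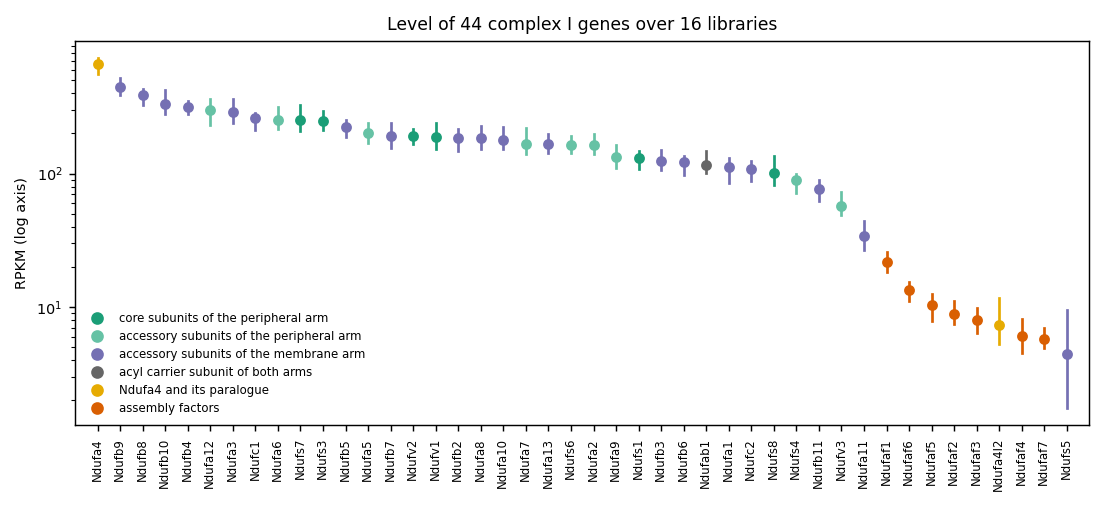
Mean RPKM over 16 libraries (points, log axis) of 44 of the genes with the range over libraries above 0 (lines), coloured by arm. Most subunits lie well above the assembly factors, while Ndufa4l2 lies among them and the mean of Ndufs5 below them; the 2 libraries in which Ndufs5 was 0 are not on the log axis.

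Subunit transcripts were far more abundant than those of the assembly factors. On the RPKM scale, which allows levels to be set side by side between genes, the mean over all 16 libraries had a median of 181 RPKM among the 38 subunits and of 8.92 RPKM among the 7 assembly factors. Leaving aside Ndufs5 and Ndufa4l2, the remaining 36 subunits spanned 34.1 RPKM (Ndufa11) to 659 RPKM (Ndufa4), a 19.3-fold range, whereas assembly factors spanned 5.82 RPKM (Ndufaf7) to 21.8 RPKM (Ndufaf1). The lowest of these subunits therefore stood above the highest assembly factor. By arm, the median of the mean levels was 190.3 RPKM for the 7 core subunits, 164 RPKM for the accessory subunits of the peripheral arm and 184 RPKM for those of the membrane arm.

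Ndufa4, the most abundant, had 683, 602, 640.3 and 642 RPKM in trained KO mice, 642, 608, 667 and 558 RPKM in untrained KO mice, 731, 714, 666 and 659.6 RPKM in trained WT mice, and 657, 717, 662 and 690.3 RPKM in untrained WT mice. Ndufb9, a membrane arm subunit and the second in level, had 441, 393, 431 and 429.6 RPKM in trained KO mice, 454, 412, 462 and 385 RPKM in untrained KO mice, 522, 473, 447 and 467 RPKM in trained WT mice, and 435, 506, 453 and 466 RPKM in untrained WT mice. For Ndufa4 the KO and WT ranges overlapped within both training states, and for Ndufb9 they overlapped in untrained mice but not in trained mice.

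At the low end, Ndufaf7, a methyltransferase, had 5.79, 5.43, 5.30 and 5.86 RPKM in trained KO mice, 4.97, 5.74, 6.30 and 5.61 RPKM in untrained KO mice, 7.003, 5.50, 6.62 and 5.92 RPKM in trained WT mice, and 5.46, 6.31, 5.29 and 5.99 RPKM in untrained WT mice. Its fourth-largest value, 6.30 RPKM, was the lowest among the 45 genes, so no gene lay near the 1 RPKM limit and none lay outside it. Ndufa4l2 had 5.29, 6.03, 7.30 and 5.54 RPKM in trained KO mice, 7.15, 7.11, 7.74 and 6.84 RPKM in untrained KO mice, 11.7, 9.78, 6.41 and 5.88 RPKM in trained WT mice, and 7.74, 8.67, 7.68 and 6.65 RPKM in untrained WT mice. The trained WT mice spread widest for this gene, with mice 1 and 2 above every other library.

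Ndufs5, a membrane arm subunit with only 0 to 82 reads a library, was the exception to the high subunit levels. It had 1.76, 3.49, 7.42 and 4.82 RPKM in trained KO mice, 4.48, 0, 8.34 and 0 RPKM in untrained KO mice, 2.05, 2.95, 4.89 and 1.98 RPKM in trained WT mice, and 9.47, 8.55, 5.87 and 5.24 RPKM in untrained WT mice. The trained WT mice lay wholly below the untrained WT mice, and the untrained KO group held both the zeros and a value of 8.34 RPKM. In GENCODE M21 a processed pseudogene, BC002163, is 99.4% identical to an Ndufs5 transcript over 319 bases, so its reads may be divided between both loci and the level is uncertain. In all, 8 of the 45 genes have such a pseudogene, at least 95% identical over at least 100 bases, among them Ndufa12 and Ndufb4.

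Promoter sequences were taken from RefSeq on GRCm38.p6, as the 250 bases before and 50 after the gene start, which held a window for 39 of the 45 genes. Motifs of factors known to act on respiratory genes were searched on both strands: NRF1 (its palindromic consensus with a free middle base), ERR (AAGGTCA), GABP/ETS (CCGGAAG) and YY1 (AAGATGGC). An NRF1 match was in 23.1% of the members' windows, against 12.5% of windows of the genes tested, and a YY1 match in 17.9%, against 5.89%. An ERR match was in 7.69% of the members' windows, against 3.91%, and a GABP/ETS match in 12.8%, against 21% of windows of the genes tested. These shares are descriptions, and 9 of 39 windows are few.

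The windows of 4 genes that the comparisons turn on are printed on the gene's strand, 5′ to 3′, with motif matches in capitals. They are Ndufa12 and Ndufb4, the lowest by p in KO mice, and Ndufaf1 and Ndufaf4, the assembly factors nearest the threshold. Ndufa12 lies at chr10:94198785-94199084 (plus strand), Ndufb4 at chr16:37654319-37654618 (minus strand), Ndufaf1 at chr2:119662785-119663084 (minus strand) and Ndufaf4 at chr4:24897833-24898132 (plus strand), all on GRCm38.p6. In GENCODE M21, on the same assembly, Ndufa12 spans 94198720 to 94221443 on chromosome 10, Ndufb4 37647170 to 37654453 on chromosome 16, Ndufaf1 119655446 to 119662827 on chromosome 2 and Ndufaf4 24898083 to 24905001 on chromosome 4. By these spans the windows of Ndufb4, Ndufaf1 and Ndufaf4 cross the annotated gene start, whereas that of Ndufa12, set by the RefSeq start, lies wholly within the GENCODE span.
Ndufa12: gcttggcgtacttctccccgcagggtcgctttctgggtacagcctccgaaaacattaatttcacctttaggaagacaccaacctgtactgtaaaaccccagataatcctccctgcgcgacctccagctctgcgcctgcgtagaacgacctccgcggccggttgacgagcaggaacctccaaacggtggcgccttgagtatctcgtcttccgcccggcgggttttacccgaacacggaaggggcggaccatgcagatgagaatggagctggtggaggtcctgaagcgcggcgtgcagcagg
Ndufb4: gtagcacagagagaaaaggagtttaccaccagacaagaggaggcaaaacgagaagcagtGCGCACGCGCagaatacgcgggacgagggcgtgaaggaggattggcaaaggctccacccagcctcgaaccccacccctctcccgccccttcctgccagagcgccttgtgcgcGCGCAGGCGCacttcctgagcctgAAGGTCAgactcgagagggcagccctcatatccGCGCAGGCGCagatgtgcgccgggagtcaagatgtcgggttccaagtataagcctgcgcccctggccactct
Ndufaf1: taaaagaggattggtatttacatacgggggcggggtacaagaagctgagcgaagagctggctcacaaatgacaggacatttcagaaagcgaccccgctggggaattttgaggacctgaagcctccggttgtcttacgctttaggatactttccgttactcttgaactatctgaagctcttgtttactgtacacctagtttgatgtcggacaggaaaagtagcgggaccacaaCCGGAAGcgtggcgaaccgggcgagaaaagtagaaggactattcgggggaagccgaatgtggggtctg
Ndufaf4: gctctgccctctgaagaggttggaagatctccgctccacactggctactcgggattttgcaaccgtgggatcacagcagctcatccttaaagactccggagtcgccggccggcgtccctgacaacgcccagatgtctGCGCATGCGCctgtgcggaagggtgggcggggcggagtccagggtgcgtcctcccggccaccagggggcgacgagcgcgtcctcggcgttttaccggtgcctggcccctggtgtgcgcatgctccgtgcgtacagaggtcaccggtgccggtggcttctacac
Ndufb4 held 3 NRF1 matches and 1 ERR match, Ndufaf1 held 1 GABP/ETS match and Ndufaf4 1 NRF1 match, while none of the 4 motifs was found in the window of Ndufa12. Matches of different motifs did not overlap in these windows. A match is only a run of letters, and the absence of one says nothing about binding.

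The subunits moved together from mouse to mouse. The median deviation of the 38 subunits from their own means, on the log2 scale, was -0.03, -0.20, -0.06 and -0.08 in the trained KO libraries, 0.02, -0.10, 0.08 and -0.24 in the untrained KO libraries, 0.26, 0.07, 0.03 and 0.06 in the trained WT libraries, and -0.03, 0.17, 0.02 and 0.06 in the untrained WT libraries. The median of all genes tested moved as well, in a narrower range. It was -0.06, -0.08, -0.02 and 0.02 in the trained KO libraries, and 0.06, 0.01, 0.06 and -0.08 in the untrained KO libraries. In the trained WT libraries it was 0.13, -0.005, -0.01 and -0.03, and in the untrained WT libraries -0.02, 0.05, -0.03 and 0.05. The number of subunits above their own mean was 14, 1, 10 and 7 in trained KO mice, 23, 2, 35 and 0 in untrained KO mice, 36, 30, 25 and 28 in trained WT mice, and 14, 36, 23 and 32 in untrained WT mice. Most subunits were thus below their mean in every trained KO mouse and above it in every trained WT mouse, while the untrained groups held mice of both kinds. In bulk tissue, fewer cells of a type and less RNA per cell cannot be told apart.

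**Figure D2:**
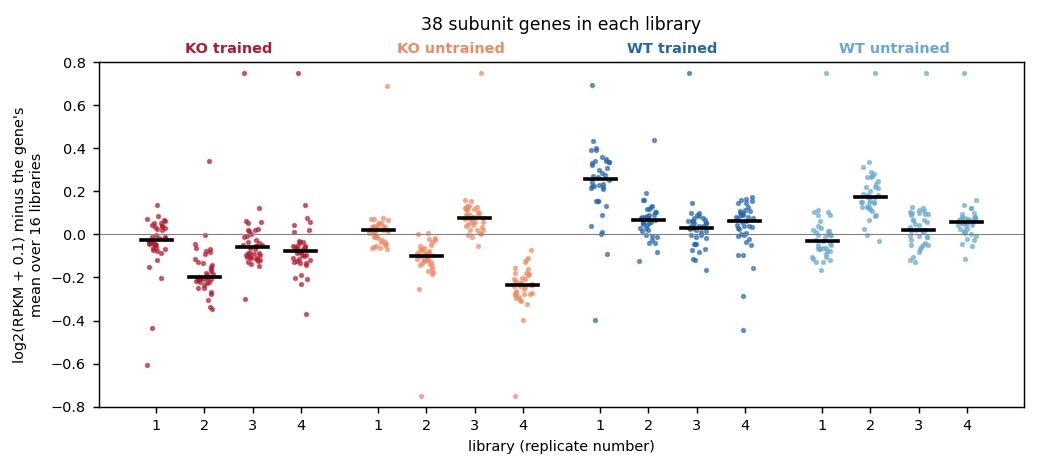
Each point is 1 of 38 subunit genes in 1 library, as log2(RPKM + 0.1) minus the gene's mean over 16 libraries; black bars are medians and points beyond the axis are drawn at its edge. All 4 medians of trained KO mice lie below 0 and all 4 of trained WT mice above it, with trained WT mouse 1 at 0.26 and untrained KO mouse 4 at -0.24. Over all genes tested, not drawn here, the medians of these mice were 0.13 and -0.08.

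Summed over the 38 subunits, the level was 7084 ± 343 RPKM in trained KO mice, 7204 ± 647 RPKM in untrained KO mice, 8001 ± 539 RPKM in trained WT mice and 7816 ± 449 RPKM in untrained WT mice (SD, n = 4 each). Summed over the 7 assembly factors, it was 74.2 ± 1.91 RPKM in trained KO mice, 71.8 ± 4.68 RPKM in untrained KO mice, 78.1 ± 4.18 RPKM in trained WT mice and 73.0 ± 1.13 RPKM in untrained WT mice (SD, n = 4 each). For the subunits, the gap between trained KO and trained WT mice exceeded the SD of either group, and for the assembly factors it was smaller than the SD of the trained WT mice.

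The first genotype comparison set trained KO mice against trained WT mice. Of the 45 genes, 41 were lower in KO muscle and 4 higher, with a median log2 difference of -0.17, or 11.0% lower; among all genes tested 65.2% were lower and the median was -0.05. By limma on log2(RPKM + 0.1), 0 of the 45 genes passed an adjusted p of 0.05, where 0.0885% of all genes did. At an unadjusted p under 0.05, 22 genes were lower and 1 higher, against 9.65% of all genes lower. The 4 KO values lay wholly below the 4 WT values for 21 of the 45 genes, against 5.86% of all genes. For 0 genes they lay wholly above the WT values, against 2.63% of all genes. Because the subunits moved together from mouse to mouse, counts of members here and below are not those of 45 separate observations.

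By role, all 7 core subunits were lower in trained KO muscle, with a median of -0.20 and 5 of them without overlap. The accessory subunits of the peripheral arm were lower for 9 of 9, with a median of -0.18 and 5 without overlap, and those of the membrane arm for 17 of 19, with a median of -0.17 and 10 without overlap. The assembly factors were lower for 5 of 7, with a median of -0.12 and 0 without overlap. Among those without overlap were Ndufs1, Ndufs3, Ndufs8 and Ndufv2 of the core, Ndufa5, Ndufa6, Ndufa9, Ndufa12 and Ndufs4 of the accessory peripheral subunits, Ndufa8, Ndufa10, Ndufa11, Ndufb2, Ndufb3, Ndufb4, Ndufb5, Ndufb7, Ndufb9 and Ndufb10 of the membrane arm, and Ndufab1. No test set these medians against each other.

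**Figure D3:**
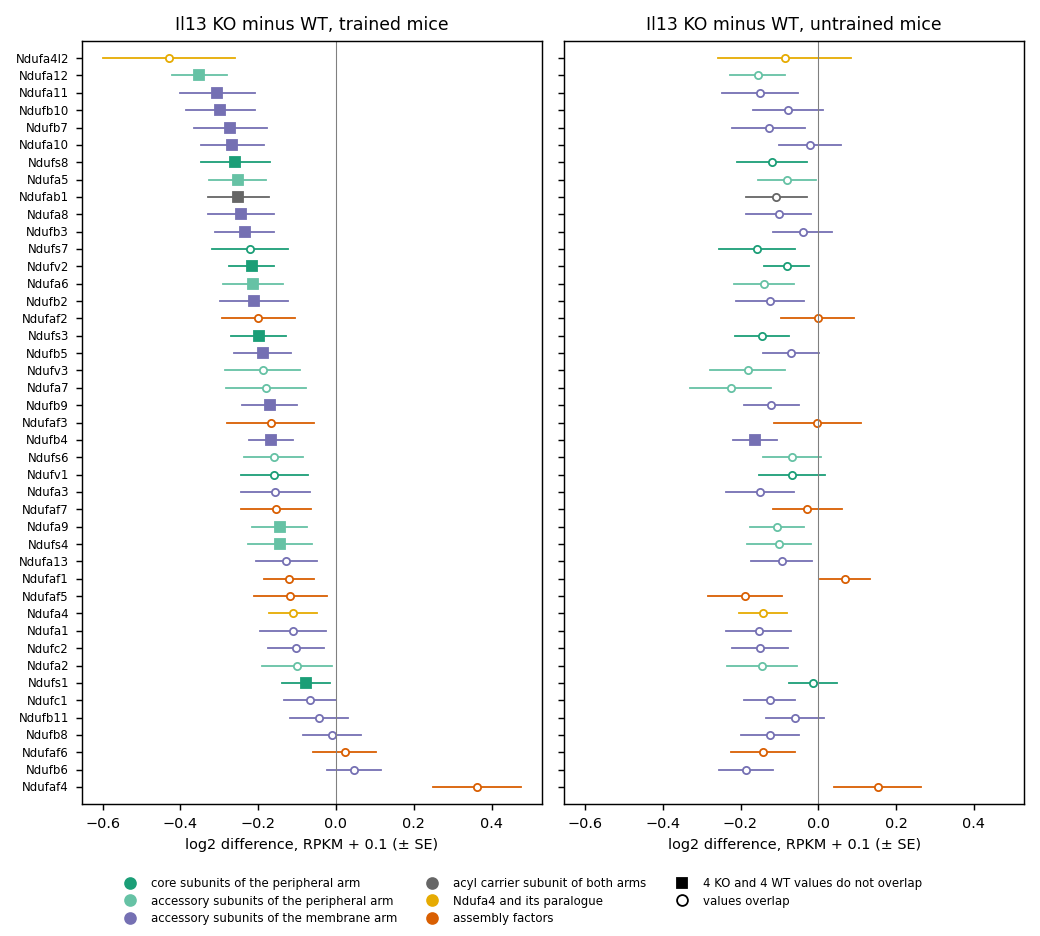
Log2 difference, KO minus WT, with its SE, for 43 of the genes in trained (left) and untrained (right) mice, in the order of the trained mice; Ndufs5, with 0 in 2 libraries, is off the scale. Filled squares mark genes whose 4 KO and 4 WT values do not overlap, 20 of those drawn in trained mice and 1, Ndufb4, in untrained mice.

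Core subunits carry the electrons through the peripheral arm. Ndufv2, which holds an iron-sulfur cluster beside the NADH site, had 186, 167, 177 and 178 RPKM in trained KO mice, against 208, 217, 193 and 203 RPKM in trained WT mice. The groups did not overlap, and the log2 difference was -0.22 (SE 0.06; limma adjusted p = 0.2), the smallest p among the core subunits. Ndufs3, of the ubiquinone module, averaged 228 ± 10.7 RPKM in trained KO mice and 262 ± 22.1 RPKM in trained WT mice, without overlap. The gap was small, as the highest trained KO value was 239.1 RPKM and the lowest trained WT value 239.5 RPKM. Ndufs8, which carries iron-sulfur clusters towards ubiquinone, averaged 94.5 ± 7.31 RPKM in trained KO mice and 113.5 ± 14.9 RPKM in trained WT mice, also without overlap. Ndufs7, which holds the last cluster before ubiquinone, averaged 227 ± 16.4 RPKM in trained KO mice and 267 ± 42.0 RPKM in trained WT mice, and Ndufv1, which binds NADH and the flavin, 185 ± 12.9 RPKM in trained KO mice and 206 ± 21.1 RPKM in trained WT mice. Ndufs7 and Ndufv1 overlapped between the groups.

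Ndufs1, the core subunit that holds several iron-sulfur clusters, had 137, 126, 136 and 135 RPKM in trained KO mice, against 139.8, 146.5, 137 and 139 RPKM in trained WT mice. The groups did not overlap, but the gap between the nearest mice was small and the log2 difference was only -0.08 (SE 0.06; limma adjusted p = 0.588).

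Among the accessory subunits of the peripheral arm, Ndufa12 differed most clearly. Ndufa12, added late in assembly, had 257, 232, 240.4 and 256 RPKM in trained KO mice, 307, 296, 317 and 274 RPKM in untrained KO mice, 356, 318, 283 and 305 RPKM in trained WT mice, and 315, 359.8, 324 and 331 RPKM in untrained WT mice. All 4 trained KO mice lay below all other 12 mice. Against trained WT mice the log2 difference was -0.35 (SE 0.07), or 21.6% lower, with a limma p of 0.000123 and an adjusted p of 0.125. Ndufa12 passed with quantile normalization (log2 difference -0.25; limma adjusted p = 0.0233) and with values rescaled to the reads in listed genes (-0.32; limma adjusted p = 0.0295). Ndufaf2, the assembly factor that is a paralogue of Ndufa12 and holds its place during assembly, averaged 8.43 ± 0.21 RPKM in trained KO mice and 9.74 ± 1.14 RPKM in trained WT mice, a log2 difference of -0.20 (SE 0.09; limma adjusted p = 0.36).

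In the membrane arm, Ndufa11 averaged 29.95 ± 2.61 RPKM in trained KO mice and 37.1 ± 4.94 RPKM in trained WT mice (SD, n = 4 each), Ndufb10 303 ± 19.3 RPKM in trained KO mice and 373 ± 36.1 RPKM in trained WT mice, and Ndufa10 164 ± 7.43 RPKM in trained KO mice and 197 ± 17.5 RPKM in trained WT mice. These genes did not overlap between the groups, with log2 differences of -0.30, -0.30 and -0.27. At the other end, Ndufb8 differed by -0.01, Ndufb6 by 0.05 and Ndufs5, which had few reads and overlapping values, by 0.47 on the log2 scale. The 95% interval of Ndufb6 ran from -0.10 to 0.19, and its values overlapped, so the difference was within the spread. Ndufab1, which carries acyl chains and is also part of fatty acid synthesis, was 107 ± 6.53 RPKM in trained KO mice and 127 ± 12.9 RPKM in trained WT mice, without overlap.

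Ndufaf4 went the other way. This assembly factor, which works with Ndufaf3 on the peripheral arm, had 7.39, 8.08, 8.13 and 6.70 RPKM in trained KO mice, 5.57, 6.21, 4.86 and 6.13 RPKM in untrained KO mice, 4.52, 6.31, 6.82 and 6.01 RPKM in trained WT mice, and 5.52, 5.15, 4.69 and 5.03 RPKM in untrained WT mice. In trained KO mice, 3 values lay above every other library and the fourth overlapped trained WT mice. Against trained WT mice the log2 difference was 0.36 (SE 0.11; limma adjusted p = 0.213). Its partner Ndufaf3 averaged 7.09 ± 0.51 RPKM in trained KO mice and 8.03 ± 1.24 RPKM in trained WT mice, a log2 difference of -0.17.

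The trained genotype comparison depended in size on scaling. With quantile normalization the median over the 45 genes was -0.08 with 36 genes lower, against 50.3% of all genes. With values rescaled to the reads in listed genes, chosen after seeing the data, the median was -0.13. The groups were then without overlap for 15 genes lower, against 4.72% of all genes. Without trained WT mouse 1 the median was -0.12, with 40 genes lower and 15 lower at an unadjusted p under 0.05, against 54.9% and 4.52% of all genes. Without trained KO mouse 2 the median was -0.14, with the same counts of 40 and 15, against 60.8% and 5.61% of all genes.

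Slow fibre and tendon markers lay lower in the same comparison, although 0 of them passed the adjusted p in limma, the smallest being 0.132 for a slow fibre gene and 0.145 for a tendon gene. The slow fibre list was chosen for slow oxidative fibres and also holds Myh2, a myosin of fast oxidative fibres. Its 10 genes, summed, lay between 641 and 1418 RPKM in trained KO mice and between 1254 and 1654 RPKM in trained WT mice. Of these genes, 10 of 10 were lower, with a median log2 difference of -0.98. Tendon genes, 8 of which were tested, summed to 99.6 to 232 RPKM in trained KO mice and 209 to 273 RPKM in trained WT mice, with 8 of 8 lower and a median of -0.74. The 10 fast fibre genes had a median of 0.01, with 4 of 10 lower, and their summed level averaged 69427 ± 3044 RPKM in trained KO mice and 68269 ± 2917 RPKM in trained WT mice. No marker was at 0 in every library, and the part of these lists in the complex I result was not tested.

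For other cell types, the median log2 difference of trained KO from trained WT mice was -0.10 for 7 adipocyte genes, -0.07 for 5 macrophage genes, -0.17 for 5 endothelial genes, -0.20 for 4 smooth muscle genes, -0.09 for 5 nerve and Schwann cell genes and 0.02 for 3 erythroid genes. None of these genes passed the adjusted p.

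The second genotype comparison set untrained KO mice against untrained WT mice. Of the 45 genes, 43 were lower in KO muscle, against 48.6% of all genes, and the median log2 difference was -0.12, against 0.00 over all genes. All 38 subunits were on the lower side, whereas 5 of the 7 assembly factors were, with a median of -0.00. The members on the higher side were Ndufaf4, at 0.15 (SE 0.11, limma adjusted p = 0.837), and Ndufaf1, at 0.07 (SE 0.06, limma adjusted p = 0.877). Again 0 of the 45 genes passed the adjusted p in limma, where 0.0492% of all genes did. At an unadjusted p under 0.05, 6 genes were lower and 0 higher, against 2.99% of all genes lower, and values were without overlap for 1 gene, Ndufb4, against 2.37% of all genes lower.

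Ndufb4, an accessory subunit of the membrane arm, had 299.9, 283, 295 and 304 RPKM in trained KO mice, 320.4, 292, 315 and 279 RPKM in untrained KO mice, 351, 343, 323 and 311 RPKM in trained WT mice, and 324, 343, 338 and 344 RPKM in untrained WT mice. It was lower in all KO mice than in all WT mice of the same training state. The log2 difference was -0.16 in untrained mice (SE 0.06; limma adjusted p = 0.78) and -0.17 in trained mice (SE 0.06; limma adjusted p = 0.239).

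Ndufb6, another accessory subunit of the membrane arm, had 133, 120.8, 132 and 133 RPKM in trained KO mice, 116.6, 101.4, 116 and 97.6 RPKM in untrained KO mice, 122, 135, 115 and 130.3 RPKM in trained WT mice, and 131, 123, 120.0 and 116.6 RPKM in untrained WT mice. Untrained KO mice were the low group, 12.1% below untrained WT mice (log2 difference -0.19, SE 0.07; limma adjusted p = 0.78). An exon of Ndufb6 overlaps Smim27 on the other strand over 257 bases, and whether the counting used strand is not given in the sources used here. The same holds for 17 of the 45 genes, whose exons overlap a gene on the other strand.

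The untrained median rested partly on untrained KO mouse 4, whose median subunit deviation was the lowest of all libraries. Without it the median was -0.06 and 37 of 45 genes were lower, against 39.6% of all genes, with 1 lower at an unadjusted p under 0.05, against 1.51%. Other libraries mattered too. The median was -0.08 without untrained WT mouse 2 and -0.16 without untrained KO mouse 3. Genes lower at that p were then 2 and 17, against 1.85% and 4.2% of all genes. Without untrained KO mouse 2 the median was -0.11, with 1 gene lower at that p, against 1.88%. Rescaled to the reads in listed genes, the median was -0.08, and with quantile normalization -0.05.

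Several marker lists lay higher in the same comparison of untrained mice, and no gene of any marker list passed the adjusted p. The slow fibre list had a median of 0.56, with 10 of 10 genes higher and sums of 789 to 1382 RPKM in untrained KO mice and 671 to 938 RPKM in untrained WT mice. The adipocyte list had a median of 0.73, with 7 of 7 higher and sums of 394 to 671 RPKM in untrained KO mice and 297 to 452 RPKM in untrained WT mice. The tendon list was at 0.42 with 7 of 8 higher, nerve and Schwann cell genes at 0.54 with 5 of 5, macrophage genes at 0.26 with 5 of 5, smooth muscle genes at 0.24 with 4 of 4 and endothelial genes at 0.02 with 3 of 5. The fast fibre list was at -0.13 with 9 of 10 lower, the skeletal muscle list at -0.08 with 5 of 5 lower and the erythroid list at -0.09 with 2 of 3 lower. The slow fibre, tendon and adipocyte lists thus lay above 0 in untrained and below 0 in trained mice, while the complex I median was below 0 in both, and their part in the result was not tested.

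Averaged over both training states, 44 of the 45 genes were lower in KO muscle, against 59.6% of all genes, and 29 were lower at an unadjusted p under 0.05, against 8.2%. With limma, 0 passed the adjusted p, where 0.0787% of all genes did. Ndufa12 had the smallest p, at a log2 difference of -0.25 (SE 0.05; adjusted p = 0.101), followed by Ndufb4 at -0.17 (SE 0.04; adjusted p = 0.283). Ndufaf4 was the only member above 0, at 0.26 (SE 0.08; adjusted p = 0.297). With quantile normalization the median was -0.06, against -0.14 as reported, with 39 genes lower and 10 lower at an unadjusted p under 0.05, where 51.7% and 6.12% of all genes were. This average shares its libraries with both genotype comparisons above and is not a separate observation.

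The training comparison within KO mice gave small differences on both sides. Of the 45 genes, 16 were higher and 29 lower in trained KO mice, against 35.1% of all genes higher, with a median log2 difference of -0.03, against -0.06 over all genes. In limma 0 of the 45 passed the adjusted p, where 0% of all genes did, and at an unadjusted p under 0.05 it gave 2 genes higher and 1 lower, against 13.7% of all genes in either direction. The median was 0.04 with quantile normalization and 0.02 when rescaled to the reads in listed genes, so its sign rested on the scaling. Reads in listed genes made up 76.7% ± 1.27 of the total in trained KO libraries and 79.9% ± 1.95 in untrained KO libraries (SD, n = 4 each). Most marker lists also lay lower in trained KO mice, with medians of -0.64 for nerve and Schwann cell genes, -0.62 for adipocyte genes, -0.57 for smooth muscle genes, -0.30 for tendon genes and -0.24 for slow fibre genes. Medians were smaller for macrophage genes at -0.19, endothelial genes at -0.14, skeletal muscle genes at -0.09 and fast fibre genes at -0.06, and erythroid genes were at 0.39. In limma 0 of these genes passed the adjusted p, and their part in the result was not tested.

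The 3 genes were Ndufa12, Ndufb6 and Ndufaf4, and in each the 4 trained and 4 untrained KO values did not overlap. They were also the 2 members without overlap on the higher side, against 4% of all genes, and the 1 on the lower side, against 5.43%. Ndufa12 was lower by 0.27 on the log2 scale (SE 0.07; limma adjusted p = 0.168), Ndufb6 higher by 0.27 (SE 0.07; limma adjusted p = 0.172) and Ndufaf4 higher by 0.41 (SE 0.11; limma adjusted p = 0.184). Without trained WT mouse 1, which is in neither group of this contrast, Ndufa12 and Ndufaf4 both passed (limma adjusted p = 0.0481), among 106 genes, or 1.04% of all tested, that passed in that fit. Ndufaf3 had 7.14, 6.36, 7.42 and 7.45 RPKM in trained KO mice, against 9.11, 8.48, 8.87 and 6.92 RPKM in untrained KO mice, with overlap through untrained KO mouse 4. Its log2 difference was -0.23 (SE 0.11; limma adjusted p = 0.384).

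**Figure D4:**
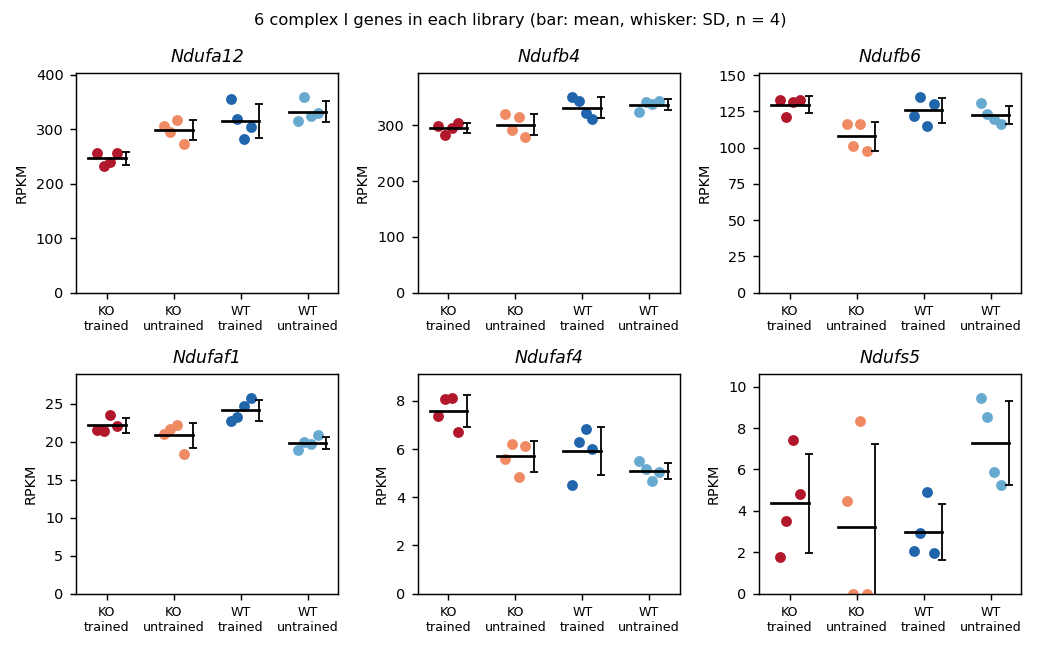
RPKM of 6 genes in each library, by group, with the mean (bar) and SD (whisker, n = 4, stopped at 0 for Ndufs5). The 4 trained KO mice are lowest for Ndufa12, untrained KO mice are low for Ndufb6, and trained WT mice are all above untrained WT mice for Ndufaf1.

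The training comparison within WT mice leaned upward. Of the 45 genes, 31 were higher in trained WT mice, against 52.4% of all genes, and the median log2 difference was 0.05, against 0.01 over all genes. In limma 0 of the 45 passed the adjusted p, where 0.187% of all genes did, and 3 were higher at an unadjusted p under 0.05, against 6.11% of all genes higher. Values were without overlap for 2 members on the higher side, Ndufaf1 and Ndufs1, against 3.76% of all genes, and for 1 on the lower side, Ndufs5, against 2.62%. The size of the lean depended on 1 library and on the scaling. Without trained WT mouse 1 the median was 0.00 with 23 genes higher, against 44.1% of all genes. Rescaled to the reads in listed genes the median was 0.12, against 0.07 over all genes, with 38 of 45 genes higher, against 70.4% of all genes. With this scaling 17 were higher at an unadjusted p under 0.05, against 14.5% of all genes. On the higher side 7 were without overlap, against 8.2%. The share of reads in listed genes was 78.6% ± 3.51 in trained WT libraries and 82.3% ± 1.57 in untrained WT libraries (SD, n = 4 each).

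Muscle and tendon markers differed in the same comparison. The slow fibre list had a median of 1.20, with 10 of 10 genes higher and sums of 1254 to 1654 RPKM in trained WT mice and 671 to 938 RPKM in untrained WT mice, and 1 of them passed the adjusted p. The tendon list was at 0.81, with 7 of 8 higher, 7 without overlap and sums of 209 to 273 RPKM in trained WT mice and 123 to 157 RPKM in untrained WT mice. The fast fibre list was at -0.26, with 9 of 10 lower and 1 past the adjusted p, and the skeletal muscle list at -0.18, with 4 of 5 lower. Medians of the other lists were 0.27 for adipocyte, 0.05 for macrophage, 0.11 for endothelial, -0.21 for smooth muscle, -0.02 for nerve and Schwann cell and 0.12 for erythroid genes. The part of these lists in the complex I result was not tested.

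Ndufaf1 came nearest to the threshold. This factor belongs to the complex that assembles the membrane arm, together with Acad9, Ecsit and Tmem126b. It had 21.6, 21.5, 23.6 and 22.1 RPKM in trained KO mice, 21.1, 21.7, 22.2 and 18.5 RPKM in untrained KO mice, 22.7, 23.3, 24.7 and 25.8 RPKM in trained WT mice, and 18.9, 19.9, 19.7 and 20.9 RPKM in untrained WT mice. All trained WT mice lay above all untrained WT mice, whereas trained and untrained KO mice overlapped. The log2 difference with training was 0.28 in WT mice (SE 0.06; limma adjusted p = 0.0637) and 0.09 in KO mice (SE 0.06; limma adjusted p = 0.524). The difference of these responses, KO minus WT, was -0.19 (SE 0.09; limma adjusted p = 0.597), so a smaller response in KO mice was not shown. Without trained WT mouse 1, Ndufaf1 passed in WT mice (log2 difference 0.31; limma adjusted p = 0.0245), in a fit that called 2.67% of all genes.

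Ndufs1 had 139.8, 146.5, 137 and 139 RPKM in trained WT mice, against 120.7, 128, 127 and 129 RPKM in untrained WT mice, without overlap (log2 difference 0.16, SE 0.06; limma adjusted p = 0.313). Ndufaf6, an assembly factor for the peripheral arm, had 12.9, 11.2, 14.6 and 12.9 RPKM in trained WT mice, against 15.3, 13.6, 14.1 and 14.9 RPKM in untrained WT mice. These overlapped, with a log2 difference of -0.17 (SE 0.08; limma adjusted p = 0.439). Ndufa12 differed by -0.08 with training in WT mice (SE 0.07; limma adjusted p = 0.717).

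Averaged over both genotypes, 27 of the 45 genes were higher after training, against 41.7% of all genes, and 18 lower, with a median of 0.02, and 0 passed the adjusted p in limma, where 0.777% of all genes did. The nearest were Ndufaf1 at 0.19 (SE 0.05; adjusted p = 0.0615), Ndufaf4 at 0.30 (SE 0.08; adjusted p = 0.0742) and Ndufa12 at -0.18 (SE 0.05; adjusted p = 0.0904). Of these, 2 were assembly factors and higher after training, and the other, a subunit, was lower. Next by p on the lower side was Ndufaf3, at -0.14 (SE 0.08, limma adjusted p = 0.355). Without trained WT mouse 1, Ndufaf1, Ndufaf4 and Ndufa12 passed in limma, at adjusted p of 0.0151, 0.00472 and 0.0104; that fit called 1044 genes, or 10.3% of all tested, so the share of members called, 6.67%, was no higher than that of all genes.

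The training response was then set between the genotypes, KO minus WT. Of the 45 genes, 32 had a lower response in KO mice, against 61.6% of all genes, with a median of -0.06, against -0.05. In limma 0 passed the adjusted p, where 0% of all genes did, and at an unadjusted p under 0.05 it gave 1 gene higher and 1 lower, against 8.4% of all genes in either direction. These were Ndufb6, at 0.23 (SE 0.10; adjusted p = 0.55), and Ndufa10, at -0.24 (SE 0.11; adjusted p = 0.593). Ndufa10 had 171, 153, 166 and 163 RPKM in trained KO mice, 185, 163, 186 and 158 RPKM in untrained KO mice, 223, 186, 186 and 193 RPKM in trained WT mice, and 164, 201, 162 and 178 RPKM in untrained WT mice. Ndufs5, with few reads and zeros in untrained KO mice, had the largest difference of responses, at 3.65 (SE 1.78, limma adjusted p = 0.617). The counts and the median were close to those of all genes.

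The other respiratory complexes gave similar values in the comparison of trained KO with trained WT mice. The median log2 difference was -0.18 for the 38 subunits of complex I, -0.20 for 6 genes of complex II, -0.19 for 9 of complex III, -0.22 for 12 of complex IV and -0.14 for 15 of complex V. The genes lower in trained KO mice were 6 of 6 in complex II, 9 of 9 in complex III, 12 of 12 in complex IV and 14 of 15 in complex V, and 0 genes of these lists passed the adjusted p. Complex I subunits, taken by name and so including Ndufa4 and Ndufa4l2, thus stood within the range of the other complexes. Ndufa4, now assigned to complex IV, was left out of the complex IV list. The 10 complex I genes with other names, chosen as assembly factors, were at -0.06 with 7 of 10 lower.

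In untrained mice, KO against WT, the medians were -0.12 for the subunits of complex I, -0.03 for complex II, -0.09 for complex III, -0.12 for complex IV and -0.10 for complex V. With training in KO mice they were -0.04 for the subunits of complex I, 0.01 for complex II, -0.02 for complex III, -0.03 for complex IV and 0.03 for complex V. With training in WT mice they were 0.04 for the subunits of complex I, 0.19 for complex II, 0.10 for complex III, 0.06 for complex IV and 0.12 for complex V. The smallest training median in WT mice was that of the complex I subunits, and no test set the complexes against each other.

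**Figure D5:**
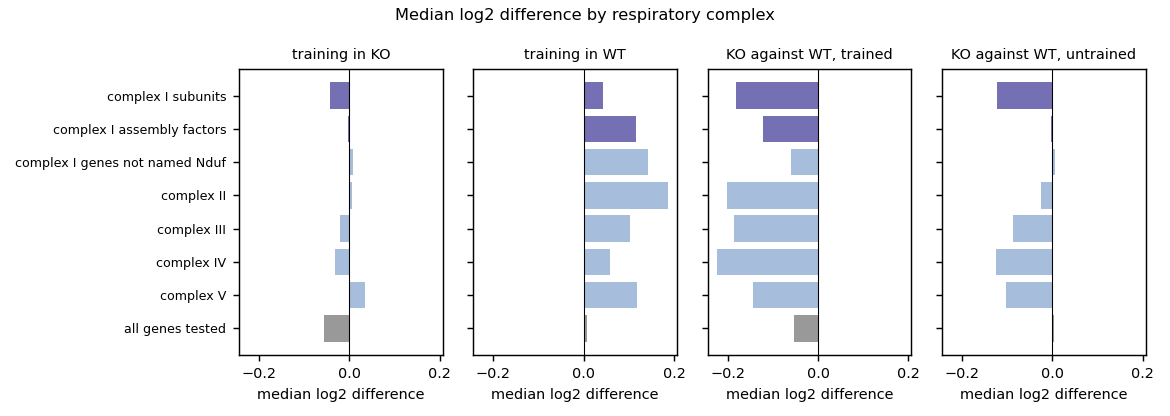
Median log2 difference over the genes of each respiratory complex and over all genes tested (bars), in 4 comparisons. Subunits of complex I lie at -0.18 in trained KO against trained WT mice, near complexes II to V, while all genes tested lie at -0.05. Complex I subunits are taken by name and so include Ndufa4 and Ndufa4l2.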

How the data were processed

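Poly(A) RNA of the gastrocnemius of 16 mice was sequenced with a stranded kit, per the labels' protocols. The deposited values are RPKM, made by the authors after read trimming, per the file headers, on the mouse build mm10, according to the submitters' processing notes. The sources used here do not give the aligner, counting program, annotation, use of strand or filters. Table columns were matched to groups by mouse identifiers, and all were used.

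RPKM steps were solved for the exon length of each gene and for library totals. This gave whole reads for 100% of values within 0.01 read over 17402 genes, and totals differed by a ratio of 1.23. Reads served only for depth and floors of 3 reads; floors cover counting error only.

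Values were tested as log2(RPKM + 0.1), which understates changes of low genes, over the 10171 genes that reached 1 RPKM in 4 or more of the 16 libraries. limma 3.58.1 (mean-variance trend, robust, statmod 1.5.0, R 4.3.3) fitted 1 mean per group and 7 contrasts, two-sided, with Benjamini-Hochberg adjustment within each contrast over all genes tested and a threshold of 0.05. Lists were described by counts and medians only. The fit was tested on simulated data. "Without overlap" means that every value of 1 group lay beyond every value of the other.

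Members, lists and the rule for named genes were chosen with earlier results of these data known. The rule names, in each contrast, the 2 members of smallest p in each direction, the most and least abundant members, and group means of the core subunits, of which 1 is not reported here by itself but stays in all counts and medians; other genes named, such as those without overlap, were picked after their values were seen. Alternatives were other normalizations, filters and pseudocounts, library weights, a replicate block, a fit of the compared groups alone, an adjusted p under 0.1 and leaving out each library. Same-numbered libraries correlated at -0.182 to 0.442 in their deviations from group means, so the numbers were not taken to pair mice. Copies and overlaps came from GENCODE M21 with BLAST+ 2.17.0. Tables and plots used Python 3.11.15 with NumPy 2.4.6, pandas 2.3.3, SciPy 1.17.1 and matplotlib 3.10.9.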

Additional observations from a re-analysis of the deposited data

Results flagged for a closer look

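In 4 of 68 groups of 4 values, 1 library lay far from the other 3, and chance alone gives about 1 in 20 groups. Ndufb6 was 120.8 RPKM in trained KO mouse 2, against a next value of 131.8 RPKM in that group. Ndufs1 was 125.6 RPKM in the same mouse, against a next value of 135.0 RPKM. The summed level of the 38 subunits was 8799 RPKM in trained WT mouse 1, against a next value of 7807 RPKM. The summed level of the 7 assembly factors was 64.84 RPKM in untrained KO mouse 4, against a next value of 73.31 RPKM.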

How the results depend on the processing

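There were 26 settings besides the reported one, 16 of which left out 1 library. In each contrast, the members with the 2 smallest p in each direction kept the sign of their log2 difference in all 24 or 25 refits that gave them a value; other named genes were not followed. The medians of the 45 genes kept their sign too, except for training in KO mice, which ran from -0.10 to 0.04, and training averaged over genotypes, from -0.01 to 0.08. Many of these agreements were fixed in advance. Changing the filter, adding the replicate block or fitting only the groups compared leaves a log2 difference as it was. The same holds for leaving out a library of a group that is not compared. Members past the adjusted p, 0 in every contrast as reported, became the following, with the share of all genes called in the same setting. For training in KO mice there was 1 with library weights (0.954% of all genes). For training in WT mice there was 1 with quantile normalization (1.52%), with a filter at 5 RPKM (1.01%), with library weights (3.23%) and at an adjusted p under 0.1 (1.34%), and 2 with values rescaled to listed genes (2.29%), which was chosen after seeing the data; Ndufaf1 was in each. For KO against WT in trained mice there was 1, Ndufa12, with quantile normalization (0.0885%) and with rescaled values (0.108%). For training averaged over genotypes there were 7 with quantile normalization (2.48%), 6 with rescaled values (3.6%), 4 with library weights (11.3%), 3 at an adjusted p under 0.1 (3.7%) and 1 with a filter at 5 RPKM (2.74%). For KO against WT averaged over training states there was 1, Ndufa12, with rescaled values (0.0982%). Leaving out 1 library gave 0 to 2 members for training in KO mice, 0 to 1 for training in WT mice, 0 to 3 for training averaged, 0 to 1 for KO against WT averaged and 0 to 0 for the other contrasts. The higher counts came mostly without trained WT mouse 1, where 2, 1 and 3 members passed in the training contrasts, beside 1.04%, 2.67% and 10.3% of all genes; without trained WT mouse 3 it was 1 for KO against WT averaged, and without untrained KO mouse 4 it was 1 for training in WT mice. The causes were not tested. With the replicate number as a block, 0 members passed in every contrast, and genes called over the whole table were 16 instead of 19 for training in WT mice, 5 instead of 9 for KO against WT in trained mice and 31 instead of 79 for training averaged. Over all settings, calls among all genes ran from 0 to 329 for training in WT mice, 0 to 106 for training in KO mice and 18 to 1152 for training averaged. The median of the 45 genes, KO against WT, ran from -0.19 to -0.08 in trained mice, from -0.16 to -0.05 in untrained mice and from -0.16 to -0.06 averaged over training states. The planned voom fit on recovered reads with TMM scaling is not reported, since the deposited unit is RPKM and not counts. A fit of only the groups compared was not available for the difference of responses and the averaged contrasts. At 4 mice a group, Ndufs5 with 0 to 82 reads is limited by depth.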
